A study of Homo sapiens with 27 samples.

Results

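The integrated stress response and the unfolded protein response were followed through 49 genes in EA.hy926 endothelial cells, a hybrid line of umbilical vein endothelial cells and A549 lung carcinoma cells. The 49 genes were those on a list of symbols, each of which matched exactly 1 of the 60604 gene entries used. They split into 28 genes of the integrated stress response and 21 genes of the unfolded protein response and the endoplasmic reticulum (ER). Whole-transcriptome RNA-seq of 27 libraries covered 7 groups. Controls were EA.hy926 cells without any product of the stromal cells. The other groups had been kept for 48 h on the cell-free matrix (ECM) of ASC52telo cells, in their conditioned medium (CM) mixed 1:1 with endothelial medium, or in direct 1:1 co-culture with them. ASC52telo is an immortalized line of adipose mesenchymal stromal cells (MSCs). Each product came from untreated (young) MSCs or from MSCs made senescent with 1.5 µg/mL mitomycin C for 18 h and then held for 10 days. The matrix was freed of cells in 5 min with the detergent Triton X-100 at 0.5% and NH4OH at 20 mM. All cells grew in serum-containing DMEM/F12, all libraries carry run number 73, and the genotype label of all libraries is wt. Each group had 4 libraries except the senescent co-culture with 3 (replicates 2 to 4). The labels leave unsaid whether endothelial cells were sorted from MSCs before extraction, and the extraction protocol gives MSCs as the RNA source although the libraries are labelled as endothelial. They also leave unsaid whether replicates were grown apart. P-values here therefore speak of the spread among the libraries alone, which may be technical.

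In the integrated stress response, kinases that sense amino acid shortage, haem deficiency, viral RNA or ER stress phosphorylate the initiation factor eIF2. General translation falls, while the transcription factor ATF4 is translated better and switches on genes for amino acid synthesis, amino acid uptake and tRNA charging, and feedback genes such as TRIB3, DDIT3 (CHOP), CHAC1 and PPP1R15A (GADD34), a phosphatase subunit that brings eIF2 back to its unphosphorylated form. In the unfolded protein response, the ER sensors IRE1 (gene ERN1), ATF6 and PERK raise chaperones such as HSPA5 (BiP), folding enzymes, and the machinery that sends misfolded proteins out for degradation (ERAD). Because ATF4 is controlled largely at translation and XBP1 and ATF6 by splicing and cleavage, mRNA levels of these 3 regulators say little about their activity. Endothelial cells secrete much protein and meet both responses under altered flow, lipids and oxygen.

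The known DNA elements of both responses were looked up in the RefSeq promoter windows of the members (GRCh38.p14, 300 bases each, 250 before and 50 after the start). The search shows which windows hold the exact letters. An element outside the window or with a letter changed would be missed, so no match does not mean that a gene lacks the element. A window was held for 45 of the 49 members. The ER stress response element, CCAAT and CCACG separated by 9 bases, was found on either strand in 7 of the 45 members (PDIA6, CANX, HSPA5, HSP90B1, CALR, XBP1 and CRELD2) and in 0.0916% of all 27305 genes with a window. Its shorter form, ATTGG and CCACG separated by any 1 base, was in 3 of 45 (HYOU1, HERPUD1 and SDF2L1) and in 0.0696% of all genes. 5 of these genes are shown with the fixed letters in capitals, each with 6 flanking bases and written in the direction of the element.
HSPA5: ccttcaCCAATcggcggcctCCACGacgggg
HSP90B1 first element: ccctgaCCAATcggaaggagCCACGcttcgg
HSP90B1 second element: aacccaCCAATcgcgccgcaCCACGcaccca
CALR: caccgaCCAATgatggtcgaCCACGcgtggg
XBP1: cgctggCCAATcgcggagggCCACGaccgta
HYOU1 first element: cctgggATTGGaCCACGtcacgg
HYOU1 second element: gtactcATTGGaCCACGtcccag
They lie at chr9:125241385-125241415 (HSPA5), chr12:103930210-103930240 and chr12:103930315-103930345 (HSP90B1), chr19:12938378-12938408 (CALR), chr22:28800597-28800627 (XBP1), chr11:119057374-119057396 and chr11:119057268-119057290 (HYOU1). The first HYOU1 element overlaps a copy of TGACGTGG, the unfolded protein response element core, which was in 3 of 45 members and 0.927% of genes.

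The core of the element bound by ATF4 with C/EBP factors, TGATGNAA, was in 10 of 45 members, 4.46% of all genes holding it. They were GARS1, ASNS, CARS1, SLC3A2, MARS1, SLC7A1, CHAC1, HERPUD1, AARS1 and NARS1. No window of ATF4, DDIT3, TRIB3 or SLC38A2 held these letters. The window of PPP1R15A held the cAMP response element TGACGTCA, a site for ATF and CREB factors that was searched after that window had been read, and that was in 1 of 45 members and 2.25% of genes.
CHAC1: caggagTGATGcAAcggcag
ASNS: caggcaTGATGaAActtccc
AARS1: cttggcTGATGcAActgcga
PPP1R15A: tcttcgTGACGTCAgcacgc
These lie at chr15:40953256-40953275 (CHAC1), chr7:97872463-97872482 (ASNS), chr16:70289680-70289699 (AARS1) and chr19:48872357-48872376 (PPP1R15A). A match is a description of letters, and no binding was measured here.

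The 250 bases before the start of PDIA4 and of HSP90B1 are shown because both genes rose in young co-culture on the TMM scale (and not with libraries scaled on endothelial markers) and because their windows differ in these letters. The HSP90B1 window held 2 ER stress response elements on opposite strands (capitals). Neither of the 2 PDIA4 windows, of which the more distal is shown, held any of the 5 motifs searched.
PDIA4: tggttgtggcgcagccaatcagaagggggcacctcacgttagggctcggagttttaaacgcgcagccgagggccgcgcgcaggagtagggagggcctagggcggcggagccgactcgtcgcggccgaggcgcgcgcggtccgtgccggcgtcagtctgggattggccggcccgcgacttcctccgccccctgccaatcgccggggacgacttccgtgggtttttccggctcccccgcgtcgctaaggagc
HSP90B1: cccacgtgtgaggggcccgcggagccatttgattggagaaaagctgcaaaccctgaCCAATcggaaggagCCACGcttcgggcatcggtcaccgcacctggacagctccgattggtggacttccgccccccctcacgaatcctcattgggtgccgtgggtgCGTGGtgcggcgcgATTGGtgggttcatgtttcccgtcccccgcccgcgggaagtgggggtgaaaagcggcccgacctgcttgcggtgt
They are chr7:149028491-149028740 (minus strand) and chr12:103930160-103930409 (plus strand), both written 5′ to 3′ on the gene's strand.

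Total counts ran from 66320519 to 111512357 per library. Replicate 1 stood apart and is described at the end, so means, SDs and tests use replicates 2 to 4. In control, ECM and CM, 18 stromal marker genes took 0.521% to 1.01% of counts in replicate 1, and 0.0106% to 0.0387% in replicates 2 to 4. In the co-culture replicates 2 to 4 the same markers took 0.0515% to 0.0860%, with 18 of 18 detected. The labelled endothelial identity was visible in controls, where 19 of 20 endothelial markers were detected (CLDN5 was at 0) and took 0.306% to 0.450% of counts, beside 5 of 6 epithelial markers (CDH1 at 0) at 0.210% to 0.254%.

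All 49 members were measured, and 48 passed the filter on low counts. VLDLR-AS1, an antisense RNA of the VLDLR locus, did not: it had 15 counts over the 27 libraries. Levels are given in CPM, a gene's counts relative to its library's total after TMM scaling over the 27 libraries. Per kilobase of exon, CALR, the calcium-binding chaperone calreticulin, was the highest member in controls at 355 ± 43.0 CPM per kb (SD, n = 3), followed by HSP90B1 at 169.9 ± 5.58 and HSPA5 at 168 ± 38.0, whose SDs overlap. ATF4 lay among the chaperones, at 76.4 ± 9.86 CPM per kb. Its feedback genes included much lower ones: DDIT3 was at 3.67 ± 0.893 and CHAC1, a glutathione-degrading enzyme, at 0.575 ± 0.0486 CPM per kb. Median levels per kilobase were 45.0 for the 14 ER chaperones and folding enzymes, 37.8 for 7 tRNA synthetases and 18.6 for 8 factors and feedback genes. ASNS, asparagine synthetase, was the lowest member that passed, at 0.0228 ± 0.00506 CPM per kb. It had 403 counts over the 27 libraries. Its exons share 44.6% of their bases with AC079781.5, another gene entry on the same strand that had 316 counts, and how the authors counted reads lying in 2 genes is not given in the sources used here, so the ASNS values below are uncertain.

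**Figure D1:**
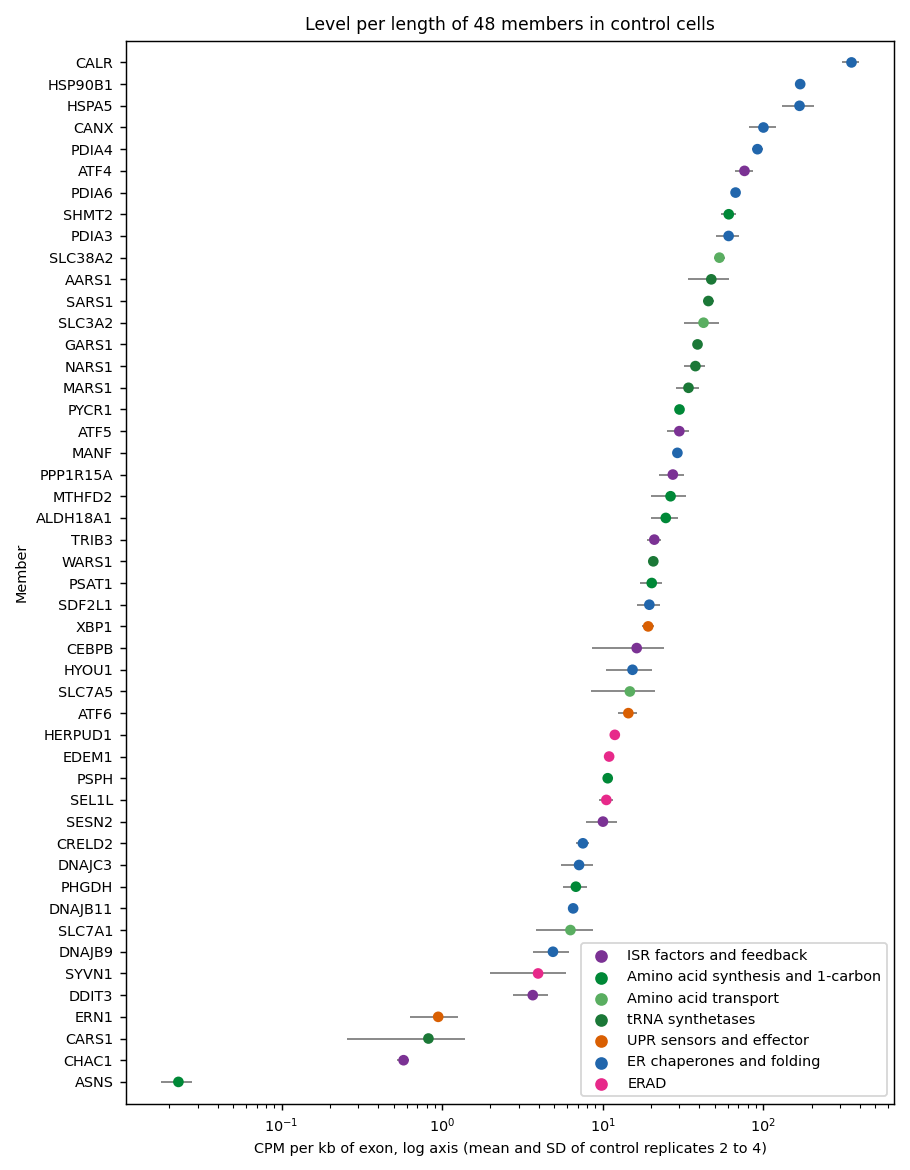
Level per kilobase of exon (x axis, CPM per kb, log scale) of the 48 members with counts in control cells, as the mean and SD of replicates 2 to 4, coloured by role. CALR, HSP90B1 and HSPA5 are at the top, and ASNS at 0.0228 CPM per kb is at the bottom.

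The control libraries differed among themselves, while the tests took the spread from all groups of a fit together. Over 48 members, the highest control replicate was a median of 1.35 times the lowest. The ratio reached 3.76 for CARS1, 2.86 for SYVN1, 2.58 for SLC7A5 and 2.42 for CEBPB, and it was 1.03 for HERPUD1 and 1.04 for WARS1. Control replicate 3 was the lowest of the 3 for 30 of the 48 members.

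On the matrix, the members with the largest positive log2 values against control were ASNS, at 1.05 and 1.18 but very low counts, and after it feedback genes of the integrated stress response, although none of the 48 passed the threshold (adjusted p under 0.05, edgeR) on either matrix. PPP1R15A was at 98.8, 69.4 and 85.7 CPM in controls, 152, 137 and 135 on young matrix, and 148, 135 and 126 on senescent matrix. All 6 matrix libraries lay above all 3 controls. The log2 fold change was 0.74 ± 0.19 (SE, adjusted p = 0.112, edgeR) on young and 0.68 ± 0.19 (adjusted p = 0.193) on senescent matrix. In young matrix against control the replicate numbers paired the libraries, and with the replicate as a block PPP1R15A passed at 0.74 ± 0.14 (adjusted p = 0.0157), the only member to do so where 1.78% of all genes did.

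TRIB3, a pseudokinase that restrains ATF4, was at 79.9, 65.5 and 70.6 CPM in controls, 104, 98.3 and 104 on young matrix and 100, 120.3 and 83.4 on senescent matrix, again without overlap. Its log2 fold changes were 0.50 ± 0.16 (adjusted p = 0.269) and 0.49 ± 0.16 (adjusted p = 0.370). DDIT3, the transcription factor CHOP, was at 4.31, 6.13 and 3.95 CPM in controls, 6.83, 10.6 and 4.94 on young and 6.57, 6.86 and 7.81 on senescent matrix. Young matrix overlapped control here, and senescent matrix did not. The counting of DDIT3 is uncertain, as 27.2% of its exonic bases lie opposite MARS1, whose counts were far higher, and the strand setting of the counting is not given. CHAC1 stayed below 2.2 CPM in these 9 libraries, with log2 differences of 0.54 ± 0.21 and 0.64 ± 0.21. ATF4 itself was at 175, 221 and 181 CPM in controls, 207, 270.3 and 184 on young and 210.0, 218 and 218 on senescent matrix, and both ranges overlapped control. ASNS was at 0.126, 0.0824 and 0.0958 CPM in controls, 0.210, 0.147 and 0.278 on young and 0.250, 0.226 and 0.224 on senescent matrix, without overlap but near the floor of detection.

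Across the list, 9 of 48 members on young matrix had an unadjusted p under 0.05 (5 higher, 4 lower), and 5 of 48 on senescent matrix (4 higher, 1 lower). Of all 18015 genes, 1535 on young and 1224 on senescent matrix had an unadjusted p under 0.05 (edgeR). DESeq2 passed 1 member on each, PPP1R15A, beside 346 and 234 of all 18015 genes. By edgeR, 0.649% of all genes passed on young and 0.3% on senescent matrix. Groups did not overlap, with matrix above control, for 4 members on young matrix (TRIB3, CHAC1, PPP1R15A and ASNS; 5.65% of all genes) and for 6 on senescent matrix (the same 4 with DDIT3 and WARS1; 6.58%). Matrix lay wholly below control for 5 members on young matrix (ATF5, PSPH, PYCR1, XBP1 and PDIA6; 4.72% of all genes) and for 1 on senescent matrix (PSPH; 5.34%). The median log2 difference of the 8 factors and feedback genes was 0.38 on young and 0.33 on senescent matrix, while it was -0.10 and -0.08 for the 14 chaperones and 0.0025 and -0.013 over all genes. The other ATF4-linked lists did not share the rise. Amino acid synthesis and 1-carbon genes summed to 742.2, 704.4 and 775.6 CPM in controls. Their sums were 623.1, 692.4 and 625.7 on young and 630.5, 703.8 and 695.3 on senescent matrix. Summed synthetases and summed transporters overlapped control on both matrices. Epithelial markers moved in the same comparison, at 0.107% to 0.128% of counts on the 2 matrices, below the control range, and their part in these values was not tested.

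Set against conditioned medium, the matrix difference in PPP1R15A and TRIB3 passed the threshold. PPP1R15A was at 91.0, 75.0 and 64.1 CPM in young and 80.9, 73.8 and 52.1 in senescent medium, all below every matrix library. It was lower in medium than on matrix by log2 -0.86 ± 0.19 for young (adjusted p = 0.0197) and -0.97 ± 0.19 for senescent MSCs (adjusted p = 0.00589). The senescent difference stayed past the threshold in all 13 other settings tried. TRIB3 fell by 0.74 (log2, SE 0.16, adjusted p = 0.0198) and 0.64 (SE 0.16, adjusted p = 0.0307), from 101.9 ± 3.12 to 60.05 ± 4.88 CPM and from 101.2 ± 18.5 to 64.3 ± 10.5 CPM (SD, n = 3). ASNS was lower in young medium by log2 -2.08 ± 0.40 (adjusted p = 0.00853), at 0.0546, 0.0635 and 0.0268 CPM, and in senescent medium it was at 0.180, 0.191 and 0.149 CPM. These were 3 of 48 members for young MSCs (3.35% of all genes) and 2 of 48 for senescent MSCs (4.9%, a share close to the members' own).

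These counts depended on single libraries. For young MSCs the count was 0 without young ECM replicate 4, 7 without young ECM replicate 3, 1 without young ECM replicate 2, young CM replicate 3 or young CM replicate 4, and 3 without young CM replicate 2. For senescent MSCs it was 2 without senescent ECM replicate 4 and 1 without each of the other 5 libraries. In the senescent comparison the replicate numbers paired the libraries. With the block 4 members passed (7.93% of all genes): PPP1R15A, TRIB3, HSPA5 (0.53 ± 0.14, adjusted p = 0.0331) and HYOU1 (0.66 ± 0.18, adjusted p = 0.0362), the last 2 being higher in medium. Epithelial markers stood at 0.350% to 0.551% of counts in medium, above the matrix range, and their part was not tested.

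**Figure D2:**
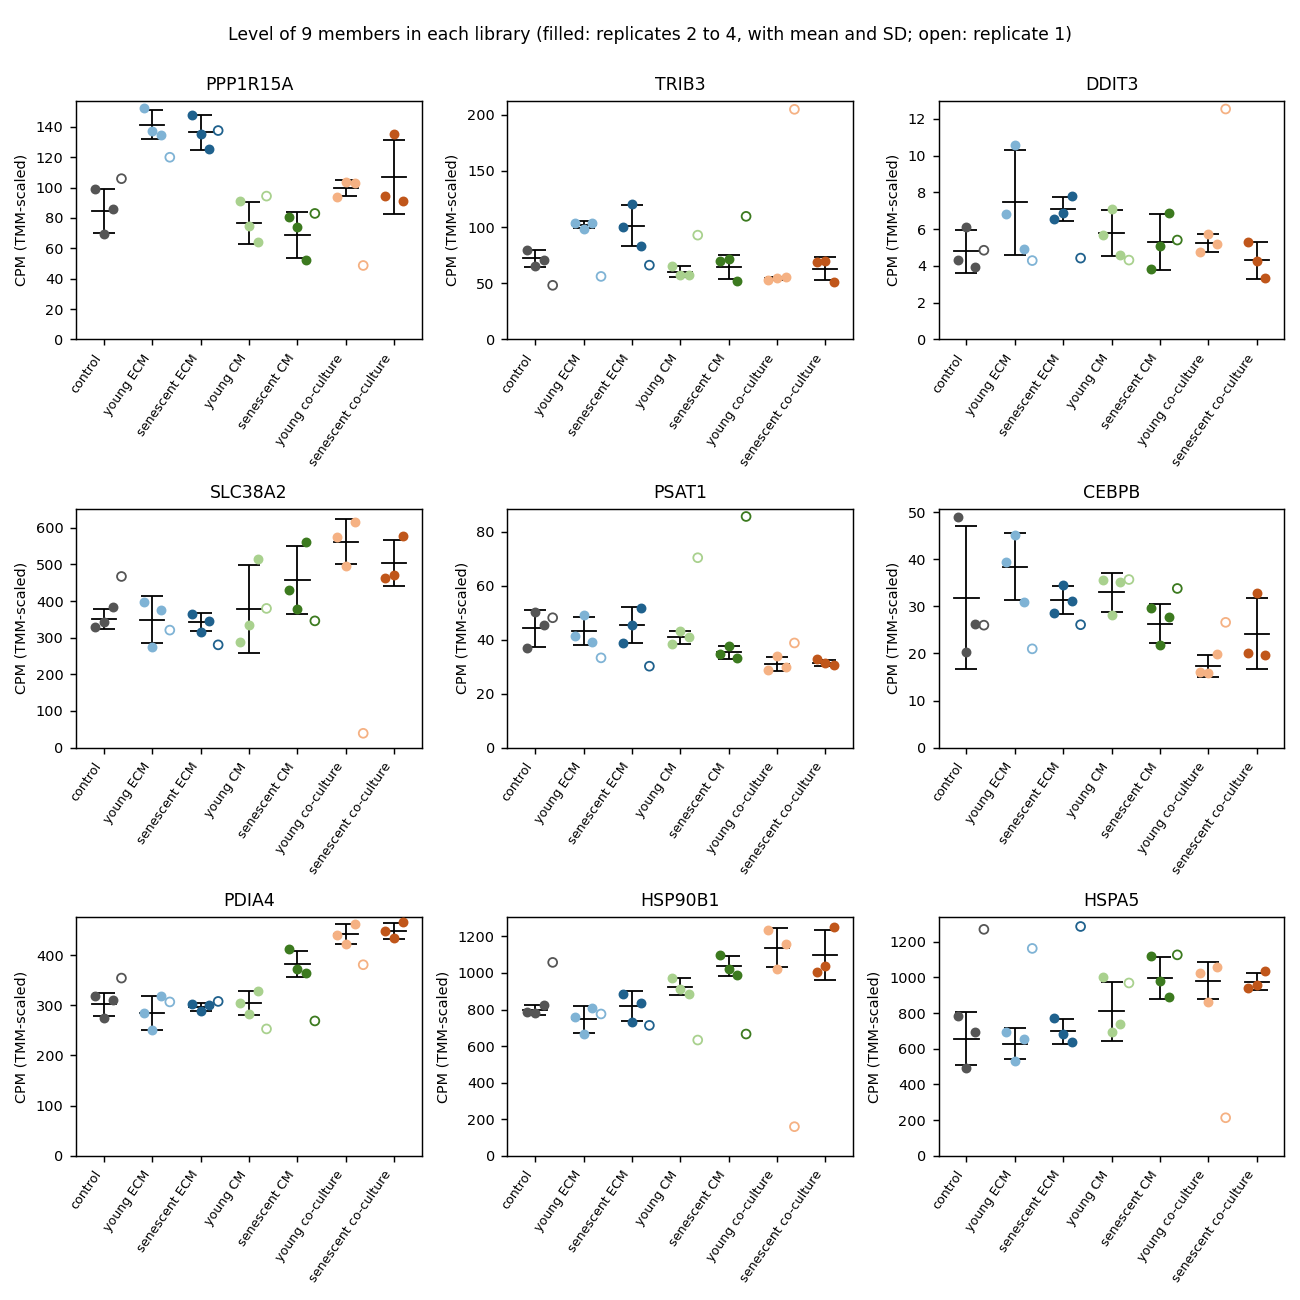
Level (y axis, CPM from 0) of 9 members in every library by group (x axis), filled points for replicates 2 to 4 with their mean and SD and open points for replicate 1. Among replicates 2 to 4, PPP1R15A and TRIB3 are above all controls in the 6 matrix libraries, and SLC38A2, PDIA4 and HSP90B1 are above all controls in the 6 co-culture libraries, on the TMM scale (not with libraries scaled on endothelial markers).

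Against control, no member passed the threshold in either medium. In young medium 0 of 48 members passed by edgeR, 0 by DESeq2 and 2 had an unadjusted p under 0.05 (ASNS lower, MANF higher). Of all 18015 genes, 0% passed by edgeR, 33 genes passed by DESeq2, and 846 had an unadjusted p under 0.05 (edgeR). In senescent medium 0 of 48 passed by edgeR and 0 by DESeq2, and 4 had an unadjusted p under 0.05, all higher. Of all 18015 genes, 0.505% passed by edgeR, 277 genes passed by DESeq2, and 1145 had an unadjusted p under 0.05 (edgeR). TRIB3 was at 65.7, 57.1 and 57.4 CPM in young and 69.4, 71.3 and 52.2 in senescent medium, and DDIT3 at 5.69, 7.10 and 4.60 and at 3.86, 5.08 and 6.89. Both genes overlapped control in both media. ATF4 overlapped control as well, at 234, 233 and 181 CPM in young and 199.9, 214 and 213 in senescent medium.

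Co-culture with young MSCs changed 4 of 48 members against control, 3 upwards and 1 downwards, where 9.68% of all 17729 genes passed. Co-culture with senescent MSCs changed 2 of 48, both upwards, where 8.05% passed, so neither count exceeded the share of genes at large. The 2 responses went different ways by their medians: with young MSCs, 18 of 21 genes of the unfolded protein response and the ER had positive log2 values (median 0.21) and 8 of 27 of the integrated stress response did (median -0.20), beside a median of 0.015 over all genes. With senescent MSCs the counts were 19 of 21 (median 0.33) and 5 of 27 (median -0.14), beside 0.016 over all genes. These medians are on the TMM scale. Scaled on endothelial markers, 25 of 48 members lay above and 23 below the all-gene median in each co-culture. That count pools both responses, so by itself it does not show their split. Relative to that median with young MSCs, PDIA4, HSP90B1 and HSPA5 read 0.55, 0.50 and 0.60, SLC38A2 0.66 and PSAT1 -0.54. These values are close to those on the TMM scale given below. The members of each response were not counted apart on the endothelial scale. A bulk library of this kind cannot tell fewer cells of a type from less RNA per cell. In co-culture the endothelial markers took 0.616% to 0.770% of counts and 12 and 11 of 18 tested ones rose on the TMM scale, while 13 and 14 of 17 tested stromal markers rose. The introduced gene of the MSC line, TERT, rose in both (log2 2.04 and 1.21). Their part in the members' changes was not tested. With libraries scaled on the endothelial markers instead of on all genes, the median of all genes moved to -0.84 (young) and -0.86 (senescent) on the log2 scale, and changes are given relative to it below where the direction turned.

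SLC38A2, the ATF4-regulated neutral amino acid transporter SNAT2, was at 329.9, 344 and 382 CPM in controls, 574, 495 and 616 in young co-culture and 464, 471 and 576 in senescent co-culture. All 6 co-culture libraries lay above the controls. It rose by 0.68 ± 0.14 (log2, adjusted p = 0.0115) and 0.53 ± 0.14 (adjusted p = 0.0416), while on the endothelial scale it read -0.18 and -0.35, which is 0.66 and 0.51 above the shifted median. The other transporters did not follow it. SLC7A5, the light chain of the leucine transporter LAT1, was at 96.8, 37.5 and 75.8 CPM in controls and 44.9, 28.7 and 40.3 in young co-culture (log2 -0.88 ± 0.29, adjusted p = 0.0859). SLC3A2, its heavy chain, and SLC7A1, a cationic amino acid transporter, differed by -0.40 ± 0.18 and -0.46 ± 0.29 in young co-culture, and neither passed.

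In the serine pathway, 1 gene passed, with young MSCs. PSAT1, which makes phosphoserine, was at 36.8, 50.5 and 45.4 CPM in controls and 28.9, 33.8 and 29.9 in young co-culture, with all 3 below the lowest control. It fell by 0.51 (log2, SE 0.14, adjusted p = 0.0435). In senescent co-culture it was at 32.8, 31.3 and 30.5 CPM, a difference of -0.48 ± 0.14 (adjusted p = 0.0629). PSPH, the last enzyme of serine synthesis, was at 29.0, 30.1 and 30.1 CPM in controls, 20.3, 23.2 and 23.6 in young and 22.5, 21.5 and 22.0 in senescent co-culture. Those groups did not overlap either, and the differences of -0.40 ± 0.12 and -0.42 ± 0.12 had adjusted p-values of 0.0587 and 0.0530. Of the 8 genes of amino acid synthesis and 1-carbon metabolism, 6 had negative log2 values in young and 7 in senescent co-culture, with medians of -0.26 and -0.21 against 0.015 and 0.016 over all genes.

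Among the factors, CEBPB, a bZIP partner of ATF4, was at 49.1, 20.3 and 26.2 CPM in controls and 16.1, 15.9 and 20.0 in young co-culture, where control replicate 2 carries the wide control range (log2 -0.87 ± 0.31, adjusted p = 0.101). TRIB3 was at 53.0, 54.7 and 55.8 CPM in young co-culture, below all controls (-0.39 ± 0.15, adjusted p = 0.132), and at 68.6, 69.6 and 50.9 in senescent co-culture. ATF5, a stress-induced factor of the mitochondrial response, was at 100.4, 73.4 and 92.1 CPM in controls and 65.8 to 73.0 in the 6 co-culture libraries. Its counting is uncertain, since 21.2% of its exonic bases lie opposite NUP62, which had more counts. ATF4 was at 199.8, 256 and 232 CPM in young and 231, 205 and 212 in senescent co-culture, overlapping control. DDIT3 was at 4.75, 5.75 and 5.19 and at 5.31, 4.28 and 3.32 CPM, also overlapping control. ASNS was at 0.1002, 0.0931 and 0.112 and at 0.212, 0.158 and 0.127 CPM.

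The 7 tRNA synthetases, which charge tRNAs with amino acids, were not among the members that passed. In co-culture 6 of 7 had negative log2 values in young and 7 of 7 in senescent co-culture, with medians of -0.19 and -0.14. WARS1, the tryptophan enzyme that interferon also induces, was nearly level, at 133, 128 and 132 CPM in controls, 126, 135 and 137 in young and 128, 117 and 129.7 in senescent co-culture. CARS1 was the member with the widest control range, at 3.91, 14.7 and 6.16 CPM, and its difference of -1.11 ± 0.39 in young co-culture did not pass.

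VLDLR-AS1 had no count in 19 of the 21 libraries of replicates 2 to 4, with 0.0104 CPM in senescent ECM replicate 2 and 0.0141 CPM in senescent co-culture replicate 4. No fold is given at this depth.

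Among the 14 ER chaperones and folding enzymes, 2 rose with young MSCs and 1 with senescent MSCs. PDIA4, a disulphide isomerase of the ER, was at 319, 274.5 and 311 CPM in controls, 439.9, 422 and 462 in young co-culture and 447, 434 and 465 in senescent co-culture. The gap between control and co-culture was wider than the range within any of these groups. It rose by 0.56 ± 0.12 (log2, adjusted p = 0.0140) and 0.58 ± 0.12 (adjusted p = 0.0109), while on the endothelial scale it read -0.29 in both, 0.55 and 0.58 above the shifted median. HSP90B1, the ER HSP90 (GRP94), was at 785, 779.5 and 828 CPM in controls, 1237, 1023 and 1156 in young and 1003, 1038 and 1252 in senescent co-culture. It rose by 0.52 ± 0.13 (adjusted p = 0.0294) with young MSCs, and on the endothelial scale it read -0.34 there, 0.50 above the median. With senescent MSCs, 0.47 ± 0.13 had an adjusted p of 0.0502.

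HSPA5, the master chaperone BiP, was at 784, 494 and 695 CPM in controls, 1028, 862 and 1058 in young and 940.1, 957 and 1034 in senescent co-culture. The groups did not overlap, but control replicate 3 widened the control range, and 0.59 ± 0.17 and 0.58 ± 0.17 had adjusted p-values of 0.0533 and 0.0634. Young co-culture and control were paired by replicate number: with the block 6 members passed (11.6% of all genes), HSPA5 at 0.60 ± 0.15 (adjusted p = 0.0224) and SEL1L at 0.54 ± 0.15 (adjusted p = 0.0364) joining the 4. HYOU1, the hypoxia-upregulated chaperone GRP170, was at 152, 77.3 and 125 CPM in controls, 194, 142 and 187 in young and 177, 192 and 208 in senescent co-culture. Its differences of 0.57 ± 0.22 and 0.71 ± 0.22 did not pass.

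Over the 14 chaperones and folding enzymes, 13 had positive log2 values in each co-culture, with medians of 0.23 and 0.33. All 3 co-culture libraries lay above all 3 controls for 8 of 48 members with young MSCs (15.5% of all genes), 6 of them chaperones: HSPA5, HSP90B1, PDIA3, PDIA4, PDIA6 and CALR. With senescent MSCs there were 13 such members (15.1%), 9 of them chaperones, the same 6 with DNAJB11, DNAJC3 and HYOU1. The young count is close to the share of all genes. The chaperones outside both sets were CANX, DNAJB9, SDF2L1, MANF and CRELD2. SDF2L1, a cochaperone of the HSPA5 system, lay wholly below control in young co-culture, at 16.6, 18.5 and 18.5 CPM against 25.4, 19.6 and 19.3 (log2 -0.26 ± 0.16, adjusted p = 0.385). It was 1 of 8 members wholly below control with young MSCs (10.8% of all genes), with ATF5, TRIB3, CEBPB, PSAT1, PSPH, SHMT2 and GARS1. With senescent MSCs there were 7 (10.4%), which were ATF5, CHAC1, PHGDH, PSAT1, PSPH, SHMT2 and GARS1. XBP1, whose spliced product drives ER genes, was at 52.5, 61.2 and 60.7 CPM in controls, 41.9, 53.2 and 60.1 in young and 53.9, 53.6 and 48.6 in senescent co-culture, overlapping control. ATF6, at 114 ± 15.3, 121.0 ± 4.44 and 116 ± 9.53 CPM, and ERN1, at 10.3 ± 3.45, 11.8 ± 3.24 and 13.1 ± 1.47 CPM, differed by less than their spread.

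The co-culture counts rested on few libraries. For young MSCs the count of 4 became 0 without young co-culture replicate 4, 1 without control replicate 4, 2 without young co-culture replicate 2, 3 without young co-culture replicate 3, 9 without control replicate 2 and 10 without control replicate 3. For senescent MSCs the count of 2 became 0 without control replicate 4 or without senescent co-culture replicate 2 or 3, 1 without senescent co-culture replicate 4, 3 without control replicate 3 and 5 without control replicate 2. PDIA4 stayed past the threshold in 9 of 13 other settings for young and 8 of 13 for senescent co-culture, leaving the endothelial scale aside.

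**Figure D3:**
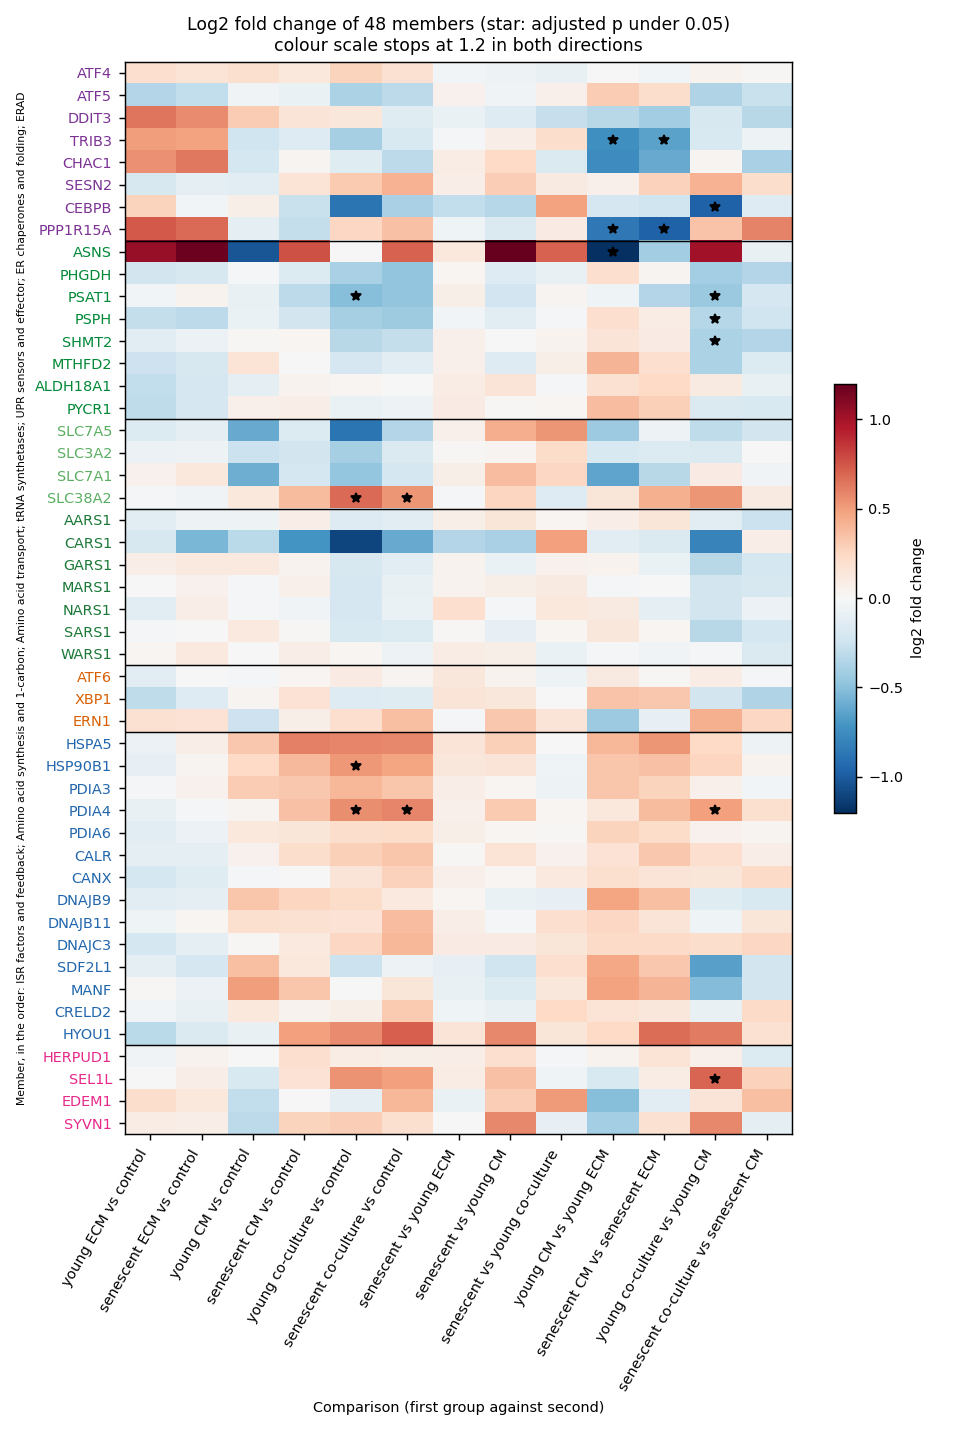
Log2 fold change (colour) of 48 members (rows, grouped by role) in 13 comparisons of 2 groups (columns), on the TMM scale, with stars where the adjusted p is under 0.05. Stars number 17 in all, and no column of senescent against young MSC products holds any.

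Several chaperones stood above control in senescent medium too, though none passed. HSPA5 was at 1123, 978 and 889 CPM there, above all 3 controls, a difference of 0.60 ± 0.20 (adjusted p = 0.315). HSP90B1 was at 1100, 1024 and 991 CPM (0.39 ± 0.13, adjusted p = 0.369) and PDIA4 at 413, 371 and 364 CPM (0.35 ± 0.13, adjusted p = 0.527), both also above all controls. All 14 chaperones had positive log2 values, with a median of 0.24 against -0.0056 over all genes, and 6 of 14 did not overlap control. Of all genes, 5.38% lay wholly above and 5.17% wholly below control in this comparison, and 1 member, PSPH, lay wholly below. In young medium HSPA5 was at 1000, 692 and 738 CPM and overlapped control, HSP90B1 was at 975, 912 and 885 CPM and did not, and PDIA4 was at 304, 282 and 329 CPM and overlapped it. Stromal markers were at 0.0292% to 0.0387% of counts in senescent and 0.0152% to 0.0212% in young medium, and their part was not tested. On the matrices, HSPA5 was at 696, 529.6 and 657 CPM (young) and 772, 681 and 639.5 CPM (senescent), and XBP1 at 45.7, 50.8 and 44.5 and at 45.5, 57.1 and 54.6 CPM. In young and senescent medium XBP1 was at 57.2, 55.01 and 63.4 and at 62.1, 61.3 and 72.1 CPM, the latter just above all controls. Young matrix had XBP1 below all controls (-0.31 ± 0.14, adjusted p = 0.553).

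**Figure D4:**
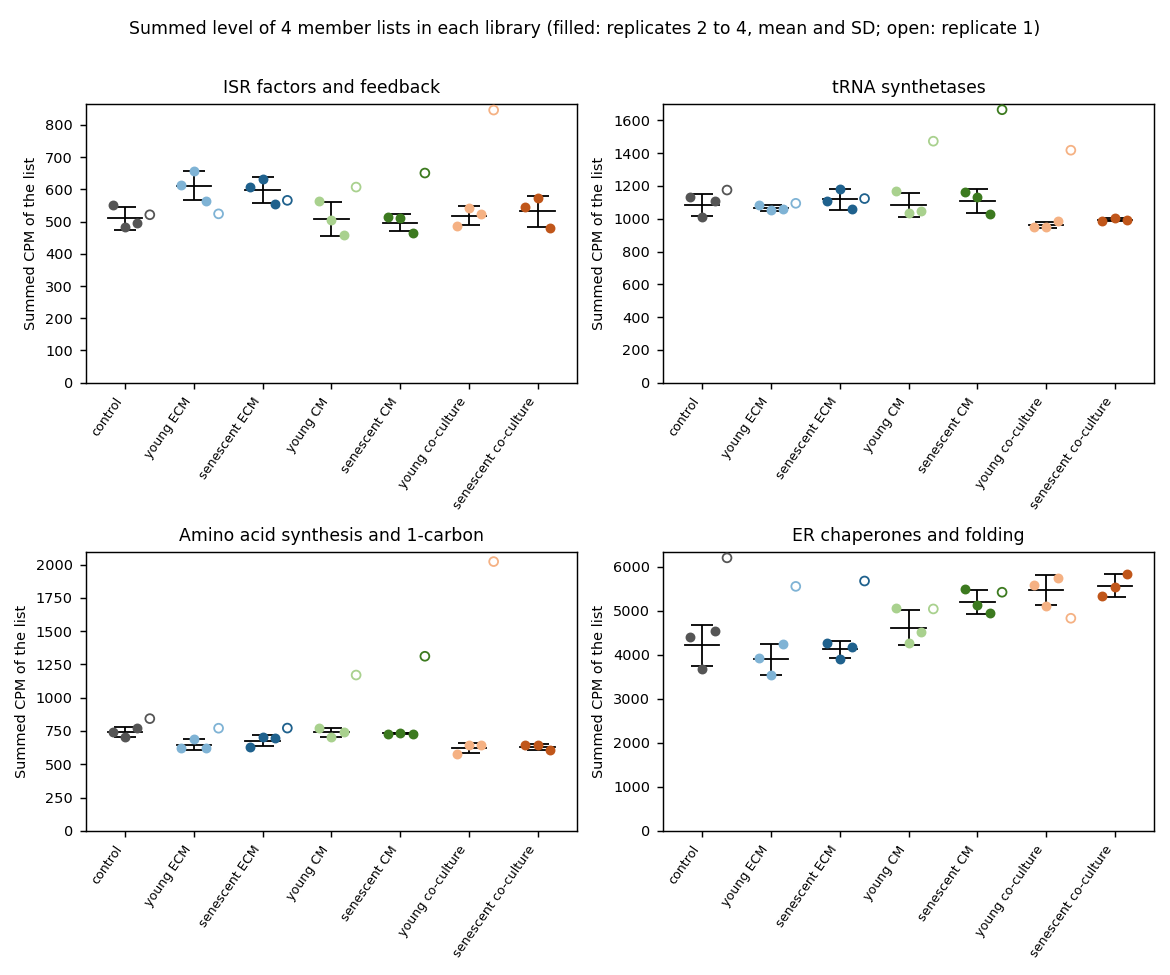
Summed CPM (y axis, from 0) of 4 groups of members in every library by group (x axis), filled points for replicates 2 to 4 with mean and SD and open points for replicate 1. The chaperone sum ran from 3689 to 4552 CPM in controls and from 5104 to 5846 CPM in the co-cultures, on the TMM scale, in replicates 2 to 4; scaling on endothelial markers turns the direction of the chaperones that passed.

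The direct comparison of co-culture with medium from young MSCs passed 6 of 48 members, 2 upwards and 4 downwards, where 11.6% of all 18492 genes passed. PDIA4 rose by 0.49 ± 0.12 (log2, adjusted p = 0.0102), while on the endothelial scale, whose median was -0.81 here, it read -0.31. SEL1L, the adaptor of the ERAD ubiquitin ligase, was at 72.7, 75.1 and 115 CPM in young medium and 164, 122 and 150.3 in young co-culture, and rose by 0.69 ± 0.21 (adjusted p = 0.0360), while it read -0.12 on the endothelial scale. CEBPB fell by 0.97 (SE 0.26, adjusted p = 0.0242), from 35.7, 28.3 and 35.1 CPM to the 16.1, 15.9 and 20.0 CPM given above. PSAT1 fell by 0.45 (SE 0.13), PSPH by 0.34 (SE 0.11) and SHMT2, the mitochondrial serine hydroxymethyltransferase, by 0.38 (SE 0.12), with adjusted p-values of 0.0371, 0.0438 and 0.0446. Leaving out libraries gave 1 member without young CM replicate 2, young CM replicate 3 or young co-culture replicate 2, 2 without young co-culture replicate 4, 3 without young co-culture replicate 3 and 10 without young CM replicate 4. For senescent MSCs 0 of 48 members passed by edgeR and 0 by DESeq2, and 5 had an unadjusted p under 0.05. Of all 18492 genes, 2.1% passed by edgeR, 593 genes passed by DESeq2, and 2071 had an unadjusted p under 0.05 (edgeR). PPP1R15A was the nearest, at 94.4, 135 and 91.3 CPM in senescent co-culture above every senescent medium library (0.60 ± 0.19, adjusted p = 0.132).

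Senescence of the MSCs moved no member past the threshold in any mode of exposure. Between senescent and young matrix 0 of 48 members passed by edgeR and 0 by DESeq2, and 0 had an unadjusted p under 0.05. Of all 18015 genes, 0% passed by edgeR, 0 passed by DESeq2, and 141 had an unadjusted p under 0.05 (edgeR). The log2 differences of the members ran from -0.35 to 0.20. Between the media 0 of 48 passed by edgeR and 0 by DESeq2, and 3 had an unadjusted p under 0.05, all higher with senescent MSCs (ASNS, HYOU1 and PDIA4). Of all 18015 genes, 0.0167% passed by edgeR, 49 genes passed by DESeq2, and 975 had an unadjusted p under 0.05 (edgeR). HYOU1 was at 197, 154 and 147 CPM in senescent and 112, 91.1 and 126 in young medium, without overlap (0.58 ± 0.25, adjusted p = 0.765). Between the co-cultures 0 of 48 passed by edgeR and 0 by DESeq2, where 0.395% of all genes passed by edgeR and 161 of 17729 by DESeq2. An unadjusted p under 0.05 (edgeR) was found for 992 of 17729 genes and for 1 member. It was EDEM1, a mannosidase-like protein of ERAD, at 90.1, 94.8 and 106 CPM with senescent and 76.0, 55.9 and 72.0 with young MSCs (0.51 ± 0.14, adjusted p = 0.328).

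Tests of whether the effect of senescence differed between modes passed 0 of 48 members for each pair, by edgeR and by DESeq2. At an unadjusted p under 0.05 there was 1 member for medium minus matrix (ASNS), 1 for co-culture minus medium (CEBPB) and 2 for co-culture minus matrix (EDEM1 and CEBPB). Of all 18492 genes, 0.00541%, 0.103% and 0.0487% passed by edgeR, and 6, 68 and 27 genes passed by DESeq2. An unadjusted p under 0.05 (edgeR) was found for 512, 1018 and 542 of these genes. On the TMM scale HSPA5 had means of 997 ± 118, 982 ± 106 and 977 ± 50.1 CPM (SD, n = 3) in senescent medium, young co-culture and senescent co-culture. Scaled on endothelial markers, it was lower in senescent co-culture than in senescent medium by log2 -0.46 (adjusted p = 0.0239, edgeR), where the median of all genes was -0.42.

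Other genes of the 2 pathways, 86 on a separate list, included larger changes in co-culture than any member. In young co-culture 11 rose and 2 fell of 82 tested, where 9.68% of all genes passed, and in senescent co-culture 11 rose and 1 fell of 82, where 8.05% did. DDIT4 (REDD1), an ATF4-linked inhibitor of mTORC1, rose from 3.77 ± 0.828 to 17.5 ± 0.647 CPM in young and 13.99 ± 2.32 CPM in senescent co-culture (log2 2.22 ± 0.19 and 1.90 ± 0.19). It also rose in senescent medium, to 11.1 ± 3.82 CPM (1.56 ± 0.28, adjusted p = 0.0164). SLC7A11, the cystine transporter that ATF4 and NRF2 both induce, fell from 174 ± 27.8 CPM to 74.8 ± 12 and 65.4 ± 16.8 CPM in the co-cultures and to 87.9 ± 6.12 CPM in senescent medium. CREB3L1, an ER-membrane transcription factor, rose from 0.823 ± 0.0622 to 2.47 ± 0.134 and 4.20 ± 0.668 CPM. IFIT1, an interferon-induced gene, rose from 6.66 ± 2.31 to 45.6 ± 10.9 CPM in young co-culture, and FARSA, a synthetase subunit, fell from 174 ± 13.4 to 123 ± 5.13 CPM. NUPR1 and SLC6A9 also passed, from control means of only 0.0130 and 0.0364 CPM, and no fold is given for them. These co-culture values are on the TMM scale. Stromal markers rose in the same comparisons, 13 of 17 tested with young and 14 of 17 with senescent MSCs, and their part in these values was not tested. On the matrices 0 of 80 tested genes passed.

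Medium against matrix passed 2 genes upwards and 1 downwards of 80 for young MSCs, a share close to the 3.35% of all genes, and 3 and 1 of 80 for senescent MSCs, close to the 4.9% of all genes. DDIT4 rose by 1.32 ± 0.28 and 2.28 ± 0.29, GDF15, a stress-induced cytokine, by 0.73 ± 0.15 and 0.88 ± 0.15, and MTHFD1L, a mitochondrial folate enzyme, by 0.57 ± 0.13 in the senescent comparison. SLC7A11 fell by 1.22 and 1.29. Between young co-culture and young medium 12 rose and 8 fell of 83, where 11.6% of all genes passed, led by IFIT1 (2.32 ± 0.29), NUPR1, CREB3L1 (1.77 ± 0.21) and DDIT4 (1.54 ± 0.25) upwards. EIF2B3 (-0.89 ± 0.22) and EIF4EBP1 (-0.81 ± 0.21), 2 translation regulators, and the synthetases KARS1 (-0.60 ± 0.14) and FARSA (-0.51 ± 0.14) led downwards. Between senescent co-culture and senescent medium 2 of 83 rose, near the 2.1% of all genes, NUPR1 and CREB3L1 (2.38 ± 0.21). In both comparisons of co-culture with medium, 12 of 17 tested stromal markers rose as well, and their part was not tested.

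Replicate 1 gave other levels for many members. In control, ECM and CM, 20 to 33 of the 49 members were above all of replicates 2 to 4 of the same group and 4 to 16 below. On young and senescent matrix 20 and 25 were above and 12 and 16 below. Over all 5 groups, 10 of the 48 other than VLDLR-AS1 were above in each. XBP1 was at 127 CPM in control and 110.1, 110.4, 176 and 203 CPM in young ECM, senescent ECM, young CM and senescent CM, 2.11 to 3.12 times the mean of the other replicates. PHGDH, the first enzyme of serine synthesis, was 1.69 to 4.56 times, and SLC7A1 2.65 to 3.83 times. In the 2 medium libraries CHAC1 reached 12.5 and 18.6 CPM and SLC7A5 373 and 430.0 CPM. HSP90B1 was at 633 and 666 CPM there, below replicates 2 to 4. The 5 libraries are those with the high share of stromal markers, and of TERT at 0.0647% to 0.122% of counts, whose part in these levels was not tested.

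Young co-culture replicate 1 split the ER members in both directions. SDF2L1 was 6.43 times, MANF 4.30 times, CRELD2 4.04 times, XBP1 3.33 times, CALR 2.44 times and HERPUD1 1.49 times the mean of the other replicates, all above their range, while DNAJB9 was within it and the other 14 of the 21 were below. SLC38A2 was at 39.1 CPM against 495 to 616 in the other replicates, HSPA5 at 214 against 862 to 1058 and HSP90B1 at 159 against 1023 to 1237. CALR was at 2847 CPM against 1094 to 1221, SHMT2 at 1133 against 212 to 249.7, TRIB3 at 205 against 53.0 to 55.8, and ATF4 at 482 against 199.8 to 256. Of the 49 members, 22 were above, 23 below and 4 within the range of the other replicates. The TMM factor of this library was 0.459, against 1.074, 1.059 and 1.065 in replicates 2 to 4 of the group. A low factor raises every CPM of its library, so these ratios and the split into above and below rest on it. With replicate 1 in the fits, the counts of members past the threshold (edgeR) went from 4 and 2 to 0 and 0 for young and senescent co-culture against control, from 3 to 0 and from 2 to 1 for young and senescent CM against ECM, and from 6 to 0 for young co-culture against young CM. Stromal markers of young co-culture replicate 1 were at 0.00613% and its epithelial markers at 0.83% of counts, the lowest and the highest of the 27 libraries.

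**Figure D5:**
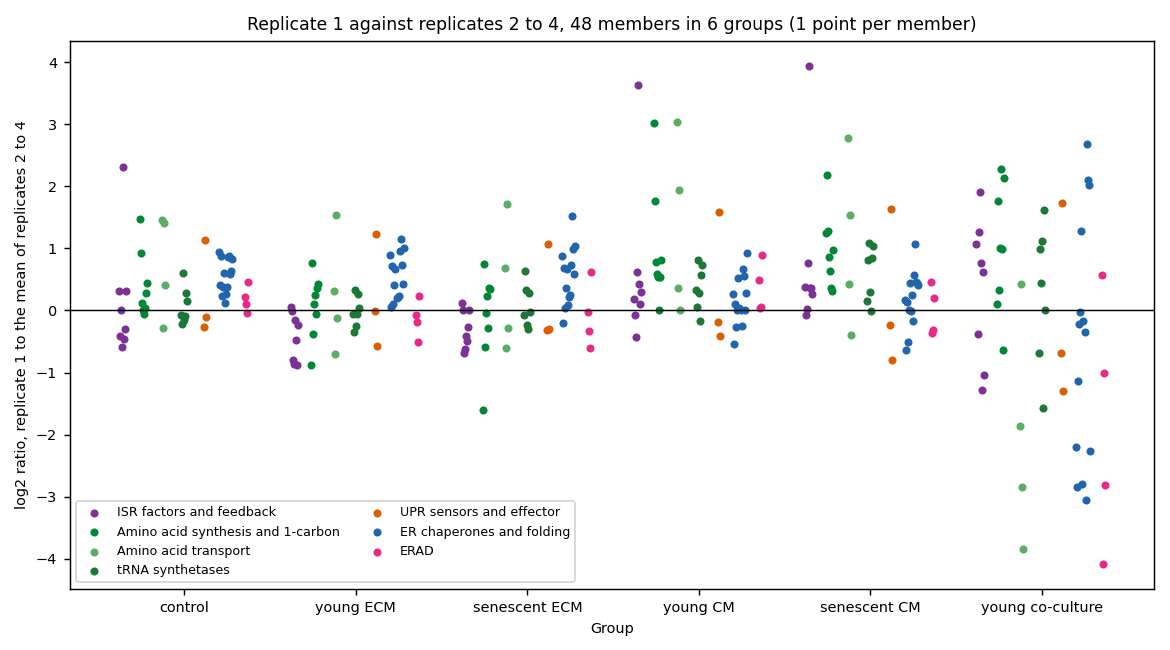
Log2 ratio (y axis) of replicate 1 to the mean of replicates 2 to 4 for 48 members in 6 groups (x axis), 1 point per member, coloured by role. Points of young co-culture spread over both directions, and SLC38A2, HSPA5 and HSP90B1 are among those far below 0. The low TMM factor of young co-culture replicate 1 (0.459) raises all points of that group.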

How the data were processed

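Poly(A) RNA was sequenced from directional NEBNext Ultra II libraries, per the labels' protocols. Per the submitters' processing notes, HISAT2 2.2.1 and featureCounts 2.0.1 were used with GRCh38/hg38. For the annotation release, the strand setting and reads in 2 genes, the entry is "not given in the sources used here". The deposited table holds raw counts per gene, with no normalization by the authors. The 44 second copies of pseudoautosomal genes were left out, leaving 60604 entries.

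Genes were filtered with filterByExpr (minimum 10) and scaled by TMM. Tests on replicates 2 to 4 used the quasi-likelihood F-test of edgeR 4.0.16 in R 4.3.3, with Benjamini-Hochberg adjustment over all genes tested and a threshold of 0.05. Controls with ECM and CM (18015 genes), controls with co-culture (17729) and all 21 libraries (18492) were separate fits, so comparisons that share the controls are not independent. The test was checked on simulated counts. SEs are the fold change over the root of F. DESeq2 1.42.0, other scalings, filters, replicate sets and blocks were alternatives.

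Counts of every pair of libraries in a group differed beyond sampling noise (chi-square per degree of freedom of at least 19.8). Total counts per library are large, so the number of libraries limits precision. Replicate numbers were taken as pairing libraries where deviations from the group means correlated over 0.1 for each of 3 pairs (12484 genes), which held in 5 of 13 comparisons. The correlations were 0.593, 0.697 and 0.541 for young ECM with control, 0.596, 0.751 and 0.258 for young co-culture with control, and 0.601, 0.33 and 0.472 for senescent CM with senescent ECM.

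The members and gene lists were chosen with earlier results of these data known. Members past the threshold are named up to 12 per direction, ATF4, DDIT3, TRIB3, ASNS, XBP1, HSPA5 and VLDLR-AS1 in every group, and up to 4 other pathway genes per direction and comparison. A few more members are named that were chosen after their values were seen. Haematopoietic markers were at 0.000138% of counts or less in replicates 2 to 4.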

Additional observations from a re-analysis of the deposited data

Results flagged for a closer look

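Among 30 groups of 4 libraries (the members ATF4, DDIT3, TRIB3, XBP1 and HSPA5 in the 6 groups with a replicate 1), 8 held a library whose gap to the nearest other was large against the range of its group, where chance marks about 1 in 20. In all 8 it was replicate 1. XBP1 was high in replicate 1 of control (127 CPM), young ECM (110.1 CPM), young CM (176.1 CPM), senescent CM (203.3 CPM) and young co-culture (172.5 CPM). TRIB3 was low in young ECM replicate 1 (56.05 CPM) and high in young co-culture replicate 1 (204.7 CPM). DDIT3 was high in young co-culture replicate 1 (12.53 CPM). The CPM values of young co-culture replicate 1 are raised by its low TMM factor of 0.459.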

How the results depend on the processing

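Counts of members past the threshold depended on the fit, and the cause was not tested. Against control, the 0 members on young ECM became 1 with DESeq2, with no filter on low counts, with a replicate block and with all replicates and a block. All genes that passed there were 346 of 18015, 363 of 36163, 321 of 18015 and 101 of 18714. The 0 on senescent ECM became 1 with DESeq2 (234 of 18015 genes), with a block (200 of 18015) and with all replicates and a block (123 of 18714). The 0 in senescent CM became 1 with a block (230 of 18015 genes). For young co-culture against control (4), the count was 10 with DESeq2 and with no filter, 0 with all replicates, 0 with all replicates and a block, and 40 scaled on endothelial markers. All genes that passed were 2342 of 17729 with DESeq2, 2280 of 34699 with no filter and 12490 of 17729 scaled on endothelial markers. With all replicates they were 45 of 17955, and 52 with a block. For senescent co-culture against control (2), the count was 8 with DESeq2, 4 with RLE scaling, 6 with no filter, 5 with a block, 5 with all 7 groups in 1 fit, 0 with all replicates, 0 with all replicates and a block, and 39 scaled on endothelial markers. All genes that passed were 1944 with DESeq2, 1385 with RLE scaling, 1713 with a block and 13215 scaled on endothelial markers, of 17729. They were 2009 of 34699 with no filter and 1524 of 18492 with all 7 groups. With all replicates they were 30 of 17955, and 26 with a block. Young CM against young ECM (3) gave 0 with all replicates (12 of 18714 genes). Senescent CM against senescent ECM (2) gave 4 with DESeq2 (1263 of 18015 genes), 4 with a block (1428 of 18015) and 1 with all replicates (122 of 18714). Young co-culture against young CM (6) gave 10 with DESeq2, 13 with a block, 0 with all replicates, 1 with all replicates and a block, and 41 scaled on endothelial markers. All genes that passed there were 3090 of 18492, 4414 of 18492, 189 of 19428, 749 of 19428 and 11828 of 18492. Senescent co-culture against senescent CM (0) gave 1 with no filter (663 of 38082 genes) and 17 scaled on endothelial markers (2766 of 18492). Leaving out single libraries gave 0 to 10, 0 to 5, 0 to 7, 1 to 2 and 1 to 10 members for young and senescent co-culture against control, young and senescent CM against ECM, and young co-culture against young CM. The share of all genes is not given for the fits with a library left out.

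Scaling on endothelial markers turned log2 changes of PDIA4 to -0.286, -0.285 and -0.305 (young and senescent co-culture against control, young co-culture against young CM), of SLC38A2 to -0.178 and -0.354, of HSP90B1 to -0.338 and of SEL1L to -0.115. With all replicates and a block, SLC38A2 and HSP90B1 in young co-culture read -0.185 and -0.223 and SHMT2 in young co-culture against young CM 0.280, or 0.485 without the block. The replicate block was applied to all comparisons, but only 5 of 13 met the pairing check, and every library correlated best with its own number in 3. The 17 calls of members all held with DESeq2, with RLE scaling and with the block. With no filter on low counts 12 held and 5 did not. With all replicates 1 held, 15 missed the threshold and 1 turned direction, and with a block added these were 3, 11 and 3. Over the fits with a library left out, calls held 46 times and missed the threshold 56 times. Leaving the endothelial scale aside, SLC38A2 in senescent co-culture held in 3 of 13 other settings. Limits are the 3 libraries per group, the wide control range and the unknown mix of cells in co-culture; at these depths, ASNS, CHAC1 and VLDLR-AS1 alone among the members named had under 3 CPM in replicates 2 to 4 of every group.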
